A study of Homo sapiens with 4 samples.

Results

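The MYC, MAX and MXD network is a family of basic helix-loop-helix leucine zipper transcription factors that compete for the same partner and the same DNA element. Its genes were described here in nascent RNA of HCT116 cells after acute depletion of KAP1. The 9 genes are MYC, MAX, MXD1, MXD3, MXD4, MXI1, MNT, MLX and MGA, chosen by symbol and found among the 19901 protein-coding genes of the count table. HCT116 is a human colon carcinoma line, and the cells were its derivative KAP1_dTAG_CloneD5, which is 1 clone. In both groups KAP1, the corepressor encoded by TRIM28, carries a tag that lets the degrader dTAG-13 recruit it for proteolysis. The DMSO group (2 libraries) received vehicle and the dTAG group (2 libraries) received 500 nM dTAG-13, each for 8 h. TT-Seq then captured the RNA made during a 10 min pulse of 500 µM 4-thiouridine (4sU).

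MYC activates transcription only as a heterodimer with MAX, bound to the E-box CACGTG. MXD1, MXD3, MXD4, MXI1 and MNT also dimerize with MAX and bind the E-box, but recruit SIN3 and histone deacetylases, so that they antagonize MYC. MLX resembles MAX and pairs with some of the same repressors and with the glucose-responsive factors MLXIP and MLXIPL. MGA, a large protein with a T-box as well as the helix-loop-helix domain, pairs with MAX as the scaffold of a variant Polycomb complex, PRC1.6. MYC is a short-lived mRNA and protein that colon carcinoma cells express highly downstream of WNT signaling.

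Gene counts per library were between 93105627 and 102314741. Levels are given as CPM, counts scaled to the same fixed total in every library after TMM correction for composition, and as CPM per kilobase of gene where genes are compared with each other. All 9 genes had at least 50 counts in each of the 4 libraries, as did 12612 genes that entered edgeR's quasi-likelihood test. A gene was called when its p-value, after Benjamini-Hochberg adjustment over all tested genes, was under 0.05. The labels number the libraries as replicates 1 and 2. With 2 per group, a p-value or interval rests largely on spread pooled over all tested genes (prior degrees of freedom 18.9, residual 2). It measures no spread beyond that of these samples. CPM are shares of a library, so that neither cell number nor a change in total nascent RNA can be read from them. The epithelial markers EPCAM, CDH1, KRT8, KRT18 and KRT19 were tested in 5 of 5 cases and summed to between 1044 and 1147 CPM, whereas the markers of other cell types summed to between 5.09 and 5.97 CPM, of which COL1A1 made up 4.65 to 5.43 and PTPRC had at most 1 count. TRIM28 RNA was 61.7 and 69.8 CPM in DMSO and 53.5 and 47.9 CPM in dTAG (log2 fold change -0.37, SE 0.092, adjusted p = 0.019 in edgeR's quasi-likelihood test). Because the degrader removes KAP1 protein and not its transcript, TRIM28 RNA is no test of the labels.

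MYC had by far the highest nascent RNA level of the network genes per kilobase. In DMSO it was at 154 ± 14.7 CPM per kilobase (SD, n = 2), higher than 99.8% of tested genes. MLX was next at 4.26 ± 0.161 CPM per kilobase, 36.1-fold below MYC, and was itself 2.77-fold above MXD4. The other genes lay within a narrow range, with MXD4 at 1.54 ± 0.330, MNT at 1.41 ± 0.203, MXI1 at 1.23 ± 0.0982, MXD3 at 1.04 ± 0.162, MGA at 0.969 ± 0.123, MAX at 0.768 ± 0.0341 and MXD1 at 0.536 ± 0.0190 CPM per kilobase. From MXD4 down to MGA, each gene overlapped its neighbor in this order between the 2 DMSO libraries, so that these ranks are not separated. MAX and MXD1, which close the order, overlapped neither each other nor MGA in DMSO. The only RefSeq promoter found for MXD1 starts 17422 bases inside its counted interval. The level of MXD1 per kilobase, and its rank below MAX, thus depend on the start used. MAX, the partner that MYC and its antagonists share, was the second lowest of the 9 per kilobase in DMSO, above 40.3% of tested genes. In dTAG the mean of MAX was 0.846 CPM per kilobase, above those of MGA (0.838), MXD3 (0.716) and MXD1 (0.554). The dTAG libraries of MAX (0.869 and 0.822) and MGA (0.810 and 0.866) overlapped, so that these ranks are not separated. Summed over the 5 antagonists, the level was 5.35 and 6.17 CPM per kilobase in DMSO and 5.03 and 5.17 in dTAG. MYC exceeded that sum 26.8-fold and 26.6-fold in DMSO and 31.6-fold and 28.1-fold in dTAG. The ratios of the dTAG libraries stood further apart than that of dTAG replicate 2 stood from DMSO. MYC itself was at 143 and 164 CPM per kilobase in DMSO and 159 and 145 in dTAG, so that its groups overlapped. A difference in the ratio was not tested. All these values are levels of nascent RNA over whole genes, introns included, and not of mRNA or protein, nor are they rates of transcription. The order also went with gene structure. MYC and MLX are the shortest genes (6.002 and 6.173 kb) and the most exonic (76.5% and 68.9%). The exonic share of the others ran from 6.48% for MAX to 51.0% for MNT. Whether length or exonic share bears on the order was not tested. When the stretch that another counted gene covers on the same strand was left out of the length, MXD3 stood at 1.31 CPM per kilobase and passed MXI1 in the order.

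**Figure D1:**
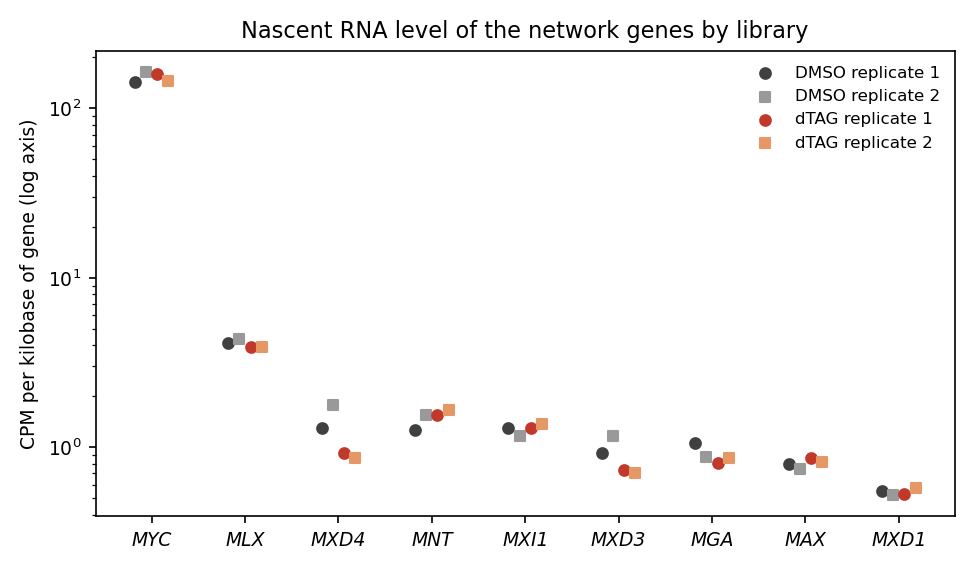
Level of each network gene in each library, as CPM per kilobase of gene on a log axis, with 1 point per library (gray: DMSO, red and orange: dTAG). MYC stands at 143 to 164 CPM per kilobase in every library, MLX near 4, and the other 7 genes between 0.522 and 1.77.

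Of the 9 genes, 2 were called lower after KAP1 depletion, MXD4 and MXD3, and 0 were called higher. Over all tested genes 3.66% were called lower and 3.44% higher. At an unadjusted p under 0.05 there were 3 of the 9 (MXD4, MXD3 and MGA), a share near the 26.6% of all tested genes. DESeq2 also called 2 of the 9, and 9.74% of tested genes. Only MXD4 was called with a change of at least 1.5-fold, as were 1.64% of tested genes. Both dTAG libraries lay below both DMSO libraries for 4 genes (MXD3, MXD4, MLX and MGA) and above them for 1 (MAX). Among tested genes 30.7% lay wholly below and 28.1% wholly above, so that non-overlap is common in this dataset. The median log2 fold change was -0.013 over the 9 genes and -0.015 over all tested genes.

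**Figure D2:**
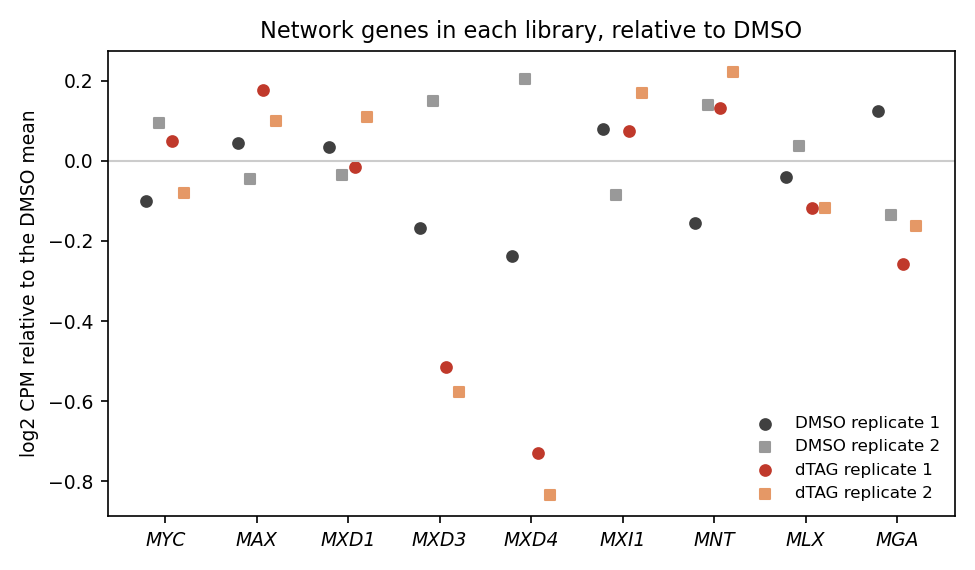
log2 CPM of each network gene in each library relative to the mean of its 2 DMSO libraries, with 1 point per library. For MXD3 and MXD4 both dTAG points lie far below both DMSO points, while for MYC and MXD1 the points of the groups interleave.

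MXD4, a MAX partner that represses E-box genes in differentiating cells, fell most. Its level was 19.4 and 26.4 CPM in DMSO against 13.8 and 12.8 CPM in dTAG. Both dTAG libraries were low and close together, whereas the DMSO libraries stood apart by 0.44 on the log2 scale. The mean went from 22.9 ± 4.91 to 13.3 ± 0.690 CPM (SD, n = 2), a fitted change of -41.8% (log2 fold change -0.78, SE 0.13, 95% interval -1.06 to -0.50, adjusted p = 0.0012 in edgeR's quasi-likelihood test). Only 0.563% of tested genes had a lower fold change. With each library left out in turn, its log2 fold changes were from -0.98 to -0.54. Without DMSO replicate 1 the log2 fold change was -0.98, and without DMSO replicate 2 it was -0.54, so that its size depended on which DMSO library was used. With total ERCC counts as library sizes it was not called (-0.085, adjusted p = 0.88), a setting in which edgeR called 0 genes of the whole table, 229 genes passed an unadjusted p under 0.05, and the median gene moved by 0.63. MXD4 (ENSG00000123933.16) lies on chromosome 4 from 2247431 to 2262294 of hg38, on the minus strand, and 46.2% of it is exonic. No other counted gene overlaps it.

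MXD3, an MXD protein linked to proliferating cells, also fell. Its level was 10.5 and 13.1 CPM in DMSO against 8.26 and 7.91 CPM in dTAG. As with MXD4, DMSO replicate 2 was the highest library and the dTAG libraries lay close together. The mean went from 11.8 ± 1.83 to 8.09 ± 0.244 CPM (SD, n = 2), a fitted change of -31.4% (log2 fold change -0.54, SE 0.14, 95% interval -0.85 to -0.24, adjusted p = 0.027 in edgeR's quasi-likelihood test). This call was less stable than that of MXD4, holding in 6 of 10 alternative settings against 9 of 10 for MXD4. Among the 10 is 1 chosen after seeing the data, a replicate block with the dTAG numbers crossed, in which both genes were called. Leaving out a library leaves 1 in its group, so only log2 fold changes are given here for those fits. Dropping dTAG replicate 1 or 2 barely moved the log2 fold change of MXD3 (-0.57 and -0.51). Dropping a DMSO library moved it more, to -0.69 for replicate 1 and -0.38 for replicate 2. With an ERCC factor as a covariate it was -0.32 (adjusted p = 0.21), and with ERCC totals as library sizes it was 0.14 (adjusted p = 0.80). MXD3 (ENSG00000213347.10) lies on chromosome 5 from 177301460 to 177312757 of hg38, on the minus strand. RAB24 covers 20.2% of it on the same strand, and PRELID1, with 3476 to 4768 counts per library against 714 to 1306 for MXD3, lies inside it on the opposite strand. The counting options for strand and overlap were not given in the sources used here. In the table, 78.5% of genes that lie inside same-strand genes only were at 0 in all libraries, against 19.2% of those inside opposite-strand genes only and 11.8% of genes that no counted gene overlaps.

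MXD4 and MNT, the antagonists whose values moved apart most, are shown here by their promoters together with MXD3, since all 3 genes are GC-rich and the E-box is the element that the network itself binds. The windows are RefSeq promoters on GRCh38.p14, 250 bases before to 50 bases after the start of transcription, on the gene's strand. Capitals mark the E-box CACGTG, a palindrome that reads the same on both strands. The windows are chr4:2262060-2262359 (minus strand) for MXD4, chr5:177312703-177313002 (minus strand) for MXD3 and chr17:2401011-2401310 (minus strand) for MNT.
MXD4: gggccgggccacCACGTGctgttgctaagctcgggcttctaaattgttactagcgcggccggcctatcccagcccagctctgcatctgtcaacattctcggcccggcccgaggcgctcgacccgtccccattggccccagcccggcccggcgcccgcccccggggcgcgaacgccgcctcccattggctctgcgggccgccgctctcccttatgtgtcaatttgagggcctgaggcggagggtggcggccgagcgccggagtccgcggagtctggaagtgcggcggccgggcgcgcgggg
MXD3: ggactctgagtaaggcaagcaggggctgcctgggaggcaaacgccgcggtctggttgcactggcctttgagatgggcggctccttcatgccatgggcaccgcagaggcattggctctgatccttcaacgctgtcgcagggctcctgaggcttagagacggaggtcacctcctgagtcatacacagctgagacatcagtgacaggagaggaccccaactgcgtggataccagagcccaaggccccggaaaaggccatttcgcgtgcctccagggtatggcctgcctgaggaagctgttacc
MNT: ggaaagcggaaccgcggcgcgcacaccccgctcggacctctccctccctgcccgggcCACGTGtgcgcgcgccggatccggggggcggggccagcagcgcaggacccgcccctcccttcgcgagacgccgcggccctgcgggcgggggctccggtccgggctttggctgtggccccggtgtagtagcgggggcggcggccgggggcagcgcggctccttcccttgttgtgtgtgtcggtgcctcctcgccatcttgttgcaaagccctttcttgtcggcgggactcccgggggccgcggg
The MXD4 window held 1 E-box, which begins at base -238 from the start, and the MNT window held 1, which begins at base -193. The MXD3 window held none. Of the 9 genes, 8 had at least 1 window, and 3 of their 13 windows (1 each of MXD4, MNT and MLX) held the E-box, as did 7.26% of all 35116 promoter windows. GC content was 72.3% in the MXD4 window, 60.7% in that of MXD3 and 76.0% in that of MNT, against a median of 58.7% over all windows. The log2 fold changes of the genes with a promoter E-box were -0.78 for MXD4, 0.18 for MNT and -0.12 for MLX. Only MXD4 was called. Whether the E-box or the GC content of a promoter bears on these values was not tested.

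MNT, which is expressed broadly and opposes MYC in proliferating and resting cells alike, was not called. Its level was 21.7 and 26.6 CPM in DMSO against 26.4 and 28.1 CPM in dTAG. DMSO replicate 1 was low and the other 3 libraries lay together, so that the groups overlapped (log2 fold change 0.18, SE 0.11, 95% interval -0.056 to 0.41, adjusted p = 0.32 in edgeR's quasi-likelihood test). MNT had a log2 fold change of 0.33 with DMSO replicate 2 dropped, but 0.038 with replicate 1 dropped. It (ENSG00000070444.14) lies on chromosome 17 from 2384059 to 2401118 on the minus strand, with 51.0% of its bases exonic.

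MXI1, also known as MXD2, had 103 and 92.3 CPM in DMSO against 103 and 110.0 CPM in dTAG. Its groups overlapped (log2 fold change 0.12, SE 0.086, 95% interval -0.058 to 0.30, adjusted p = 0.37 in edgeR's quasi-likelihood test). Its log2 fold change rose to 0.21 once DMSO replicate 1 was dropped and fell to 0.041 once replicate 2 was. MXD1, the founding MXD gene, induced in terminal differentiation, had 24.9 and 23.6 CPM in DMSO against 24.0 and 26.2 CPM in dTAG. It also overlapped between groups (log2 fold change 0.048, SE 0.11, 95% interval -0.17 to 0.27, adjusted p = 0.80 in the same test). MXI1 (ENSG00000119950.20) lies on chromosome 10 from 110207604 to 110287365 on the plus strand and is 7.41% exonic, so that most of its counted interval is intron. MXD1 (ENSG00000059728.10) lies on chromosome 2 from 69897687 to 69942945 on the plus strand, and SNRNP27 covers 17.4% of it on the same strand. Among the 5 antagonists, 2 were called lower in the TMM fit and 3 were not called, while 3.66% of all tested genes were called lower.

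MAX, the obligate partner of MYC, had 76.5 and 71.8 CPM in DMSO against 83.9 and 79.4 CPM in dTAG. Both dTAG libraries were above both DMSO libraries, and MAX was not called (log2 fold change 0.14, SE 0.084, 95% interval -0.036 to 0.31, adjusted p = 0.29 in edgeR's quasi-likelihood test). With 1 library left out, its log2 fold change ran from 0.093 to 0.18. MAX (ENSG00000125952.18) lies on chromosome 14 from 65006173 to 65102695 on the minus strand and is 6.48% exonic. FNTB, with 206 to 284 counts, and the readthrough gene CHURC1-FNTB, with 1346 to 1956 counts, lie across 58.5% and 57.6% of it on the opposite strand, against 7163 to 8399 counts for MAX.

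MLX, the alternative partner, had 25.6 and 27.0 CPM in DMSO against 24.2 and 24.2 CPM in dTAG. Both dTAG libraries were below both DMSO libraries, yet the difference was small and not called (log2 fold change -0.12, SE 0.10, 95% interval -0.33 to 0.096, adjusted p = 0.47 in edgeR's quasi-likelihood test). MLX (ENSG00000108788.11) lies on chromosome 17 from 42567067 to 42573239 on the plus strand, and PSMC3IP, with 2142 to 2298 counts, covers 15.0% of it on the opposite strand. MGA, the PRC1.6 scaffold, had 160.3 and 134 CPM in DMSO against 123 and 131 CPM in dTAG. DMSO replicate 2 and dTAG replicate 2 lay close together, and MGA was not called (log2 fold change -0.21, SE 0.093, 95% interval -0.40 to -0.015, adjusted p = 0.16 in the same test). Dropping DMSO replicate 1 left MGA at -0.073, and dropping DMSO replicate 2 put it at -0.33. It was called lower with an ERCC factor as a covariate (-0.48, adjusted p = 7.1e-06) and with upper-quartile factors (-0.28, adjusted p = 0.0495). MGA (ENSG00000174197.16) is the longest of the 9 genes, on chromosome 15 from 41621223 to 41773081 on the plus strand, 152 kb in all.

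In the TMM fit, MYC itself did not differ detectably between the groups. Its level was 860.4 and 985 CPM in DMSO against 956 and 873 CPM in dTAG. The dTAG libraries lay between the DMSO libraries, and the means were 923 ± 88.1 and 914 ± 58.6 CPM (SD, n = 2). The log2 fold change was -0.013 (SE 0.11, 95% interval -0.24 to 0.22, adjusted p = 0.94 in edgeR's quasi-likelihood test), and 50.2% of tested genes had a lower one. The sign turned without DMSO replicate 2 (0.086) and without dTAG replicate 2 (0.051). In 1 of 10 alternative settings MYC was called higher. That setting removed each library's trend on GC content and gene length (0.18, adjusted p = 0.0068 in edgeR's quasi-likelihood test). MYC (ENSG00000136997.17) lies on chromosome 8 from 127735433 to 127741434 of hg38 on the plus strand, is 6.002 kb long and is 76.5% exonic. By the Euclidean distance of centered log2 CPM, the profiles closest to that of MYC were those of ZNF101 (0.016), HOMER3 (0.017) and PRICKLE3 (0.024). They were picked as the closest, so that they lie below the median distance of 0.28 by choice. Over the 4 libraries the profile of MYC held mostly differences between replicates. The log2 ratio of replicate 2 to replicate 1 was 0.20 in DMSO and -0.13 in dTAG.

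Fold changes in this dataset moved with base composition, and the network genes that fell are among its most GC-rich. Over the 12612 tested genes the log2 fold change had a Spearman rho of -0.56 with GC content and 0.42 with gene length. The same relation stood between libraries of 1 group, where the ratio of DMSO replicate 2 to replicate 1 had a rho of 0.75 with GC content and the ratio of dTAG replicate 2 to replicate 1 a rho of -0.43. These are relations across genes, which share libraries and are not independent. MXD4 is 62.9% GC, above 97.1% of tested genes, MNT is 61.7% (96.1% of genes below it) and MXD3 is 58.6% (92.0%). In the most GC-rich bin of 631 genes, with a median GC content of 63.4%, the median log2 fold change was -0.30 and the range from the 5th to the 95th percentile -0.62 to 0.036. MXD4 lay below that range. MNT, in the same bin, was above it.

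**Figure D3:**
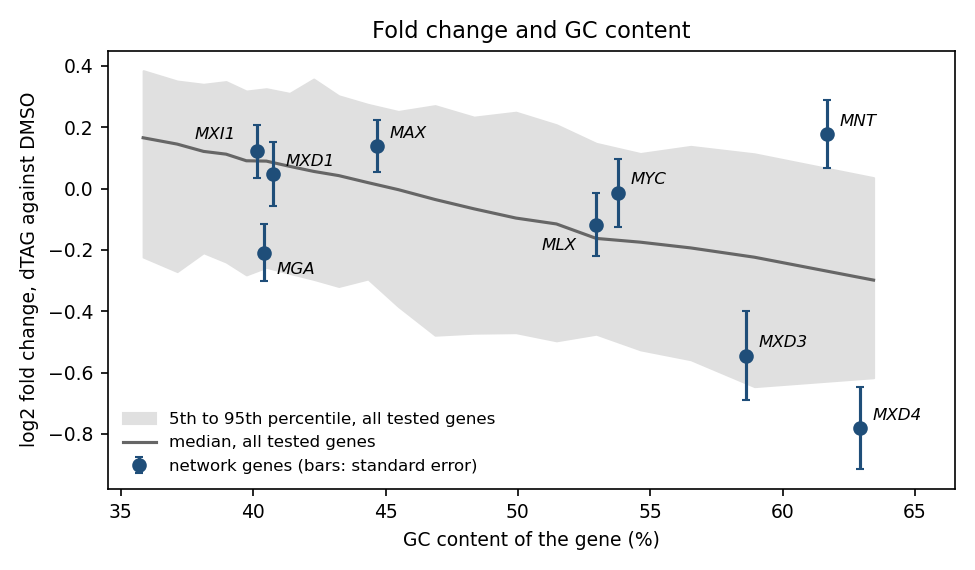
log2 fold change of each network gene (points, bars: standard error) against the GC content of the gene in percent, over the median (line) and the 5th to 95th percentile (gray) of all tested genes in bins of GC content. The median falls from left to right, MXD4 and MNT lie on opposite sides of the gray band, and MXD3 lies inside it.

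When each library's trend on GC content and gene length was removed, the fold changes of the GC-rich genes moved upward. MXD4 stayed called (log2 fold change -0.47, SE 0.084, adjusted p = 0.0022 in edgeR's quasi-likelihood test), now under 1.5-fold. MXD3 was no longer called (-0.29, SE 0.097, adjusted p = 0.060). MNT was called higher (0.47, SE 0.077, adjusted p = 0.0012), as was MYC (0.18, SE 0.040, adjusted p = 0.0068), and MGA was called lower (-0.32, SE 0.045, adjusted p = 4.3e-04). In this fit 10.6% of tested genes were called higher and 7.46% lower, so that calls were more frequent throughout the table. MAX (0.093), MXD1 (-0.049), MXI1 (0.0017) and MLX (0.065) were not called. MXD4 was the only network gene called lower in both fits.

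**Figure D4:**
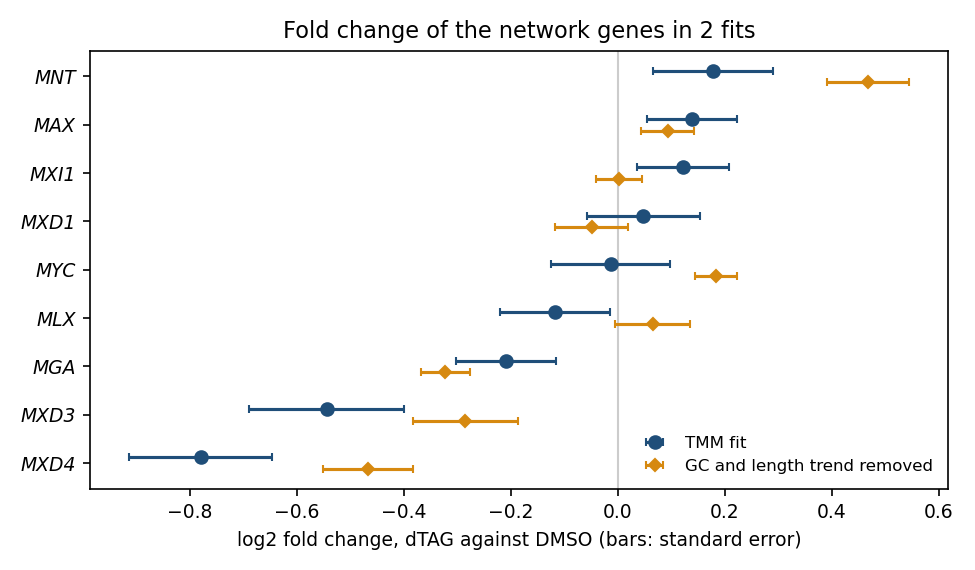
log2 fold change of each network gene in the TMM fit (blue circles) and after removal of the trends on GC content and gene length (orange diamonds), with standard errors as bars. MXD4 lies below -0.4 in both, MNT and MYC move to the right and MXD3 moves toward 0.

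The wider network was examined with the same test. Over lists of relatives, cofactors and targets with 100 different genes, 93 were tested and 2 were called, or 2.15%, against 7.1% of all tested genes in either direction. Of the relatives, MYCL, a MYC paralog, had 4.41 and 4.72 CPM in DMSO against 3.38 and 3.01 CPM in dTAG. Both dTAG libraries were lower, and MYCL was not called (log2 fold change -0.51, SE 0.18, adjusted p = 0.084 in edgeR's quasi-likelihood test). MLXIP (log2 fold change 0.0070, adjusted p = 0.96) and MLXIPL (-0.038, adjusted p = 0.81), the glucose-responsive partners of MLX, overlapped between groups. MYCN was not tested, with 3 counts in DMSO replicate 2 and 0 in the other libraries.

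Among MYC cofactors, such as the acetyltransferase KAT5 and the remodeler EP400, 0 of 11 were called by edgeR's quasi-likelihood test and by DESeq2, 1 had an unadjusted p under 0.05, and the median log2 fold change was 0.038. Log2 fold changes ran from -0.20 for KAT2A to 0.20 for ACTL6A (these and the further list genes that mark the ends of a range were named after their values were seen). In the SIN3 and NCOR corepressors, which MXD proteins and MNT recruit, 0 of 17 were called by either tool, 3 had an unadjusted p under 0.05, and the range was from -0.56 for SAP30 (adjusted p = 0.073) to 0.14 for NCOR1. The corepressor genes thus had a median of -0.0085. For the MGA complex 0 of 12 were called by edgeR, 4 had an unadjusted p under 0.05 and DESeq2 called 1, with a range from -0.34 for RING1, a ubiquitin ligase, to 0.23 for PCGF6, the Polycomb subunit that defines PRC1.6. Of the 12, 6 lay wholly above DMSO and 2 wholly below, against 28.1% and 30.7% of all tested genes. For comparison, 5 of the 11 cofactors lay wholly above and 3 wholly below. Of the 17 corepressors it was 1 above and 5 below, and of the 14 turnover factors 5 and 5. Among factors of MYC protein turnover 0 of 14 were called by edgeR, 7 had an unadjusted p under 0.05 and DESeq2 called 2. Beside these list counts, 26.6% of all tested genes had an unadjusted p under 0.05 and DESeq2 called 9.74%. The highest log2 fold change of that list was 0.32, for CIP2A, an inhibitor of PP2A that stabilizes MYC.

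Of 38 genes that MYC is known to activate, 33 were tested and 1 was called higher, the ribosome biogenesis factor WDR43. It had 398 and 367 CPM in DMSO against 469 and 500.04 CPM in dTAG, with both dTAG libraries above (log2 fold change 0.34, SE 0.098, adjusted p = 0.040 in edgeR's quasi-likelihood test). The call was lost with upper-quartile factors (0.27, adjusted p = 0.057) and with the ERCC factor (0.18, adjusted p = 0.056). It was also lost with ERCC totals (0.98, adjusted p = 0.47). With 1 library dropped at a time, the log2 fold change of WDR43 stayed between 0.28 and 0.40. The list's median was 0.026, its range ran from -0.39 for HSPE1 to that of WDR43, and DESeq2 called 2. Of 4 genes that MYC is known to repress, 1 was called lower, CDKN1A, which encodes the cell cycle inhibitor p21. CDKN1A had 204 and 244 CPM in DMSO against 139.9 and 126 CPM in dTAG, both dTAG libraries well below (log2 fold change -0.75, SE 0.097, adjusted p = 5.6e-05 in the same test). With each library left out in turn, its log2 fold change was from -0.87 to -0.62. CDKN1A stayed called after removal of the GC and length trends (-0.55, adjusted p = 3.2e-06), and was not called with ERCC totals (-0.084, adjusted p = 0.90). The other 3 repressed genes lay above 0, with 0.049 for GADD45A, 0.13 for NDRG1 and 0.24 for CDKN2B, and were not called. Of the genes that MLX acts on with its partners, KLF10 (-0.025) and ARRDC4 (0.069) were tested and not called.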

How the data were processed

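TT-Seq libraries of 4sU-labeled RNA from 4 samples were grouped by their labels. According to the study's methods and the submitters' processing notes, the authors trimmed 50 bp reads with Trim Galore 0.6.4 after FastQC 0.11.8, aligned them to hg38 with STAR and ran featureCounts (Subread 1.6.3) on whole intervals of protein-coding genes and on 92 ERCC spike-ins. The authors deposited the resulting whole-number counts without scaling. Options for strand and overlap were not given in the sources used here. No column of sample values was left aside.

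Starts are those of the deposited table; of 11138 genes whose end equals that in GENCODE 44, 6785 start 1 base below it. Exonic shares and overlaps came from GENCODE 44, and GC content from whole gene intervals in hg38.

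The fits used edgeR 4.0.16 and limma 3.58.1 under R 4.3.3. Genes with fewer than 50 counts in any of the 4 libraries were left out. TMM factors were 0.970 to 1.05. The model had 1 term, dTAG against DMSO, and calls came from the two-sided quasi-likelihood test of edgeR with Benjamini-Hochberg adjustment. The SE is the size of the log2 fold change over the square root of F. Scripts were tested on simulated data. Alternatives were DESeq2 1.42.0, upper-quartile factors, other filters, a likelihood ratio test, an ERCC factor from 14 RNAs as a covariate, ERCC totals as library sizes, a replicate block, removal of trends on GC content and length (lowess, span 0.3), and leaving out each library. A crossed block and levels per unshared kilobase were chosen after seeing the data. The study names RUVSeq without its function, so TMM was used.

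Members and lists were chosen with earlier results of these data known. Genes named were the 9 members, their relatives, called genes of each list (at most 5 in each direction), the 3 genes most like MYC, and TRIM28. HDAC1, HDAC2 and WDR5 stand in 2 lists.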

Additional observations from a re-analysis of the deposited data

How the results depend on the processing

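MXD4 was called lower in 9 of 10 alternative settings and MXD3 in 6 of 10. Both tallies count the crossed block, which was chosen after seeing the data and called both genes. Of 90 log2 fold changes of the 9 genes over the 10 settings, 70 kept direction and call. With the direction kept, 4 lost a call and 5 gained one. The other 11 changed sign, among them MXD3 with ERCC totals, which also lost its call, and MYC after removal of the GC and length trends, which gained one. Sign changes were as follows, with no call except where given. With the ERCC factor, MYC was 0.13, MXD1 -0.092 and MXI1 -0.075. ERCC totals as library sizes, which moved the median of all genes to 0.63, gave 0.65 for MYC, 0.14 for MXD3, 0.54 for MLX and 0.41 for MGA. Removal of the GC and length trends gave 0.18 for MYC (called), -0.049 for MXD1 and 0.065 for MLX. Upper-quartile factors gave -0.025 for MXD1. When a library was left out, MYC ranged from -0.11 to 0.086, with 0.051 without dTAG replicate 2, and MXD1 from -0.016 to 0.11, below 0 only without dTAG replicate 2. The cause was not tested.

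Network genes called higher numbered 2 after removal of the trends and 0 to 2 when a library was left out. Those called lower, 2 in the TMM fit, numbered 3 with upper-quartile factors, 0 with ERCC totals, 1 with the replicate block, and 1 to 2 when a library was left out. Those called and past 1.5-fold numbered 2 with upper-quartile factors, 0 with the ERCC factor, ERCC totals and removal of the trends, and 0 to 2 when a library was left out, where the lone library is assumed to vary like the other group. List genes called, 2 in the TMM fit, numbered 6 with DESeq2, 5 with upper-quartile factors, 7 with no filter, 9 with the likelihood ratio test, 12 with the ERCC factor, 0 with ERCC totals, 1 with the replicate block, 25 after removal of the trends, and 1 to 36 when a library was left out. Over all genes, 434 were called higher and 461 lower in the TMM fit, 670 and 559 with DESeq2, 673 and 744 with no filter, 729 and 864 with the likelihood ratio test, 452 and 744 with the ERCC factor, 0 and 0 with ERCC totals (229 at an unadjusted p under 0.05), 1343 and 941 after removal of the trends, and 255 and 869 with upper-quartile factors, which moved the median to -0.088.

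The replicate numbers pair no samples by the labels, and the ratios of replicate 2 to 1 in the 2 groups correlated at -0.24 across genes. With the replicate block 162 genes were called higher and 178 lower, and MXD3 (-0.54, adjusted p = 0.073) and WDR43 (0.34, adjusted p = 0.23) were not. With the numbers crossed, a choice made after seeing the data, 1587 were called higher and 1603 lower, among them 3 network genes, all lower, and 22 list genes. ERCC RNAs made up 0.0103 to 0.0265% of gene counts, which limits the spike-in settings, and 2 libraries per group limit every value.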
